A study of Mus musculus with 27 samples.

Results

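Retinoic acid acts through the nuclear receptors of the RAR and RXR families, namely the RARs (Rara, Rarb and Rarg), which bind all-trans retinoic acid (atRA), and the RXRs (Rxra, Rxrb and Rxrg), which pair with the RARs and with several other nuclear receptors. A RAR-RXR pair sits on DNA at direct repeats of a short half-site, holding corepressors when no ligand is bound and coactivators when atRA is. In skin, the vitamin A supply and its receptors are known to shape epidermal differentiation and the hair cycle. All 6 receptor genes, of 51906 genes in the count table, were found by symbol in the bulk RNA-seq counts of cultured hair follicle stem cells (HFSCs) and in the single-cell matrices of skin and of cultured HFSCs.

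Of 27 listed samples, those used are 8 of bulk RNA-seq and 4 of single cells, with the hashtag counts of the cultured ones. Bulk libraries came from 3D cultures of HFSC lines from telogen skin of 2 wild-type and 2 Rxra cKO mice (postnatal day 55), each grown in serum (FBS) or in serum-free medium with atRA and a protein kinase C inhibitor (atRA+PKCi). Per the study's methods, the cKO carries Sox9-CreER, Rxra-fl/fl and Rosa26-YFP and was given tamoxifen, so Rxra deletion is limited to cells in which Sox9 drives the recombinase, and lines were established on inactivated feeder cells. The atRA+PKCi medium differs from FBS in its serum replacement, atRA and the inhibitor together, so that these cannot be told apart. Wild-type skin at postnatal day 32 (anagen VI), sorted to deplete CD45, CD31, CD140a and CD117 cells, came from 2 mice. The 2 single-cell culture samples came from wild-type HFSCs of 2 mice, with 7 conditions pooled by hashtag. Per the study's methods, these HFSCs were isolated from the mice that gave the anagen skin, and then cultured. All of those cultures except FBS and B-27 also held atRA+PKCi, with R-spondin (Rspo), BMP2/4 or a RAR inhibitor (RARi) added in some. Each bulk group had 2 libraries, of 25150265 to 35879777 counts.

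The receptor genes lie on different chromosomes of GRCm38. Rxra is on chromosome 2 (27676440 to 27762957, plus strand), Rxrb on chromosome 17 (34031812 to 34038399, plus) and Rxrg on chromosome 1 (167598384 to 167639623, plus). Rara is on chromosome 11 (98927818 to 98974942, plus), Rarb on chromosome 14 (16430839 to 16819156, minus) and Rarg on chromosome 15 (102234938 to 102257517, minus). Exons of Rarb overlap exons of Top2b and Gm48162 on the opposite strand, and whether the bulk counting used strand is not given in the sources used here, so low Rarb counts may include reads of these genes. Exons of the other 5 receptor genes overlap no other gene in GENCODE M21.

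The receptor for which atRA is known to raise its own gene is Rarb, through a direct repeat with 5 bases between half-sites. Promoter windows of RefSeq (GRCm38.p6), from 250 bases before to 50 after each start site, were searched on both strands for 2 half-sites (AGGTCA or AGTTCA or GGGTCA or GGTTCA) in the same direction, 1, 2 or 5 bases apart. Spacing 5 was held by 0.0974% of 32851 windows, spacing 1 by 0.222% and spacing 2 by 0.268%. Among the 13 windows of the 6 receptor genes, the single Rarb window held the only one, with spacing 5, starting 53 bases before the start site. Cyp26a1, which encodes an atRA-degrading enzyme, held the only other one among the 6 of 10 known direct atRA target genes that have a window. Both are shown with the half-sites in capitals and 6 bases to each side, the Cyp26a1 repeat lying on the opposite strand and so read in reverse complement.
Rarb (chr14:16575513-16575529, minus strand): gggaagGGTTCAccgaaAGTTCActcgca
Cyp26a1 (chr19:37697776-37697792, plus strand): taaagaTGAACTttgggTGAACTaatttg
A match describes letters in a window, and its absence in another window says nothing about the receptors.

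In cultured HFSCs, Rxra and Rarg were the main receptor genes, Rxrb came next, Rara was low, and Rarb and Rxrg were near the limit of detection. Levels of different genes can be compared only per length. CPM (counts scaled to a common library total, with TMM factors) were therefore divided by exonic length in kb, merged over all annotated transcripts. The resulting scale depends on this choice of length, which the SDs below do not cover. On that scale Rxra made up 40.3% and Rarg 41.9% of the 6 genes' summed level in wild-type FBS, against 15.1% for Rxrb and 2.57% for Rara. The RXR sum was 1.25 ± 0.0559 (SD, n = 2) times the RAR sum in FBS and 1.32 ± 0.0113 times in atRA+PKCi in wild-type lines, against 1.24 ± 0.0502 in FBS and 1.59 ± 0.0566 in atRA+PKCi in cKO lines. The last group stands above the other 3, whose libraries reach 1.32 at most, while its own libraries gave 1.63 and 1.55. In cKO lines the RXR sum counts the whole Rxra gene, so it does not show how much intact Rxra was left. In cKO atRA+PKCi, Rxra held 43.2% and Rarg 32.6% of the summed per-kb level. The share of Rara was 5.43% in cKO FBS and 5.83% in cKO atRA+PKCi, against 2.57% and 3.37% in the wild-type media.

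**Figure D1:**
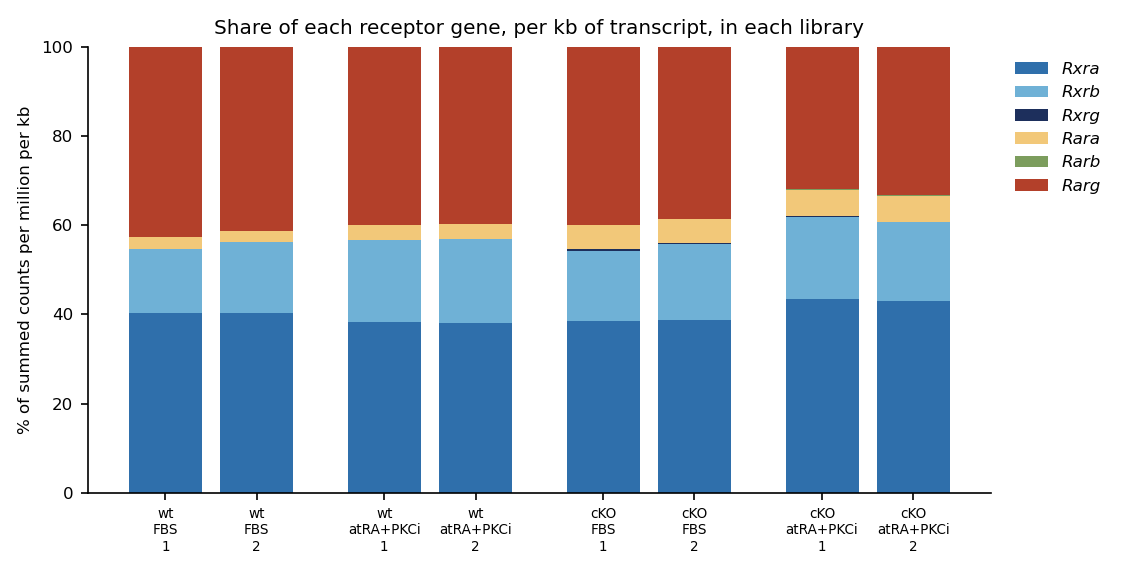
Share of each receptor gene in the summed CPM per kb (y axis, percent) in each of the 8 bulk libraries (bars, 2 a group). The Rarg share averages 32.6% in cKO atRA+PKCi and 39.2% or more in each other group.

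Rxra, the RXR that is most widely expressed in skin epithelium and the gene floxed in the cKO, had 149.4 and 122.2 CPM in FBS and 147.4 and 143.2 in atRA+PKCi in wild-type lines, against 97.2 and 95.7 in FBS and 147.7 and 145.4 in atRA+PKCi in cKO lines. Both cKO FBS libraries lie below every other library, and the other 3 groups overlap. The counts cover the whole gene, so they do not check whether the floxed part was deleted. In the table of all genes, 53.9% of 15965 genes tested passed an adjusted p of 0.05 for medium in wild-type cells, 43.0% for medium in cKO cells, 42.8% for genotype in FBS, 43.2% for genotype in atRA+PKCi and 24.6% for the difference between the medium effects. By direction, 27.2% were higher and 26.6% lower for medium in wild-type cells, 20.8% and 22.2% for medium in cKO cells, 22.3% and 20.5% for genotype in FBS, 23.0% and 20.2% for genotype in atRA+PKCi and 13.3% and 11.3% for the difference. Of the 5 receptor genes tested, 3 were higher and 0 lower for each medium effect, 1 was higher and 3 lower for genotype in FBS, 1 higher and 1 lower for genotype in atRA+PKCi, and 1 higher for the difference. No test compared these counts with the shares of all genes. With 1 line per mouse and 2 mice a group, p-values measure only the spread between these lines, and in bulk libraries fewer cells of a type and less RNA per cell cannot be told apart.

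Rxra was 0.60 ± 0.0916 (log2, SE) higher in atRA+PKCi than in FBS in cKO cells (quasi-likelihood test of edgeR, adjusted by Benjamini-Hochberg as for all bulk values here, adjusted p = 0.000871) and 0.10 ± 0.091 higher in wild-type cells, which did not pass (adjusted p = 0.397). The wild-type value was -0.0453 without wild-type FBS replicate 2 and 0.247 without its replicate 1 (adjusted p = 0.0146). In FBS it was lower in cKO than in wild-type cells (log2 fold change -0.49 ± 0.0917, adjusted p = 0.00264), and in atRA+PKCi the difference was 0.01 ± 0.0907 (adjusted p = 0.927). The difference between the medium effects was 0.51 ± 0.129 (95% interval 0.212 to 0.8, adjusted p = 0.0216). Of 15 alternative fits that gave a p for it, 8 kept an adjusted p under 0.05, and the highest was 0.279. It missed the threshold without cKO FBS replicate 2, without either cKO atRA+PKCi library or without wild-type atRA+PKCi replicate 2, and in all 3 fits on the normalized values.

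**Figure D2:**
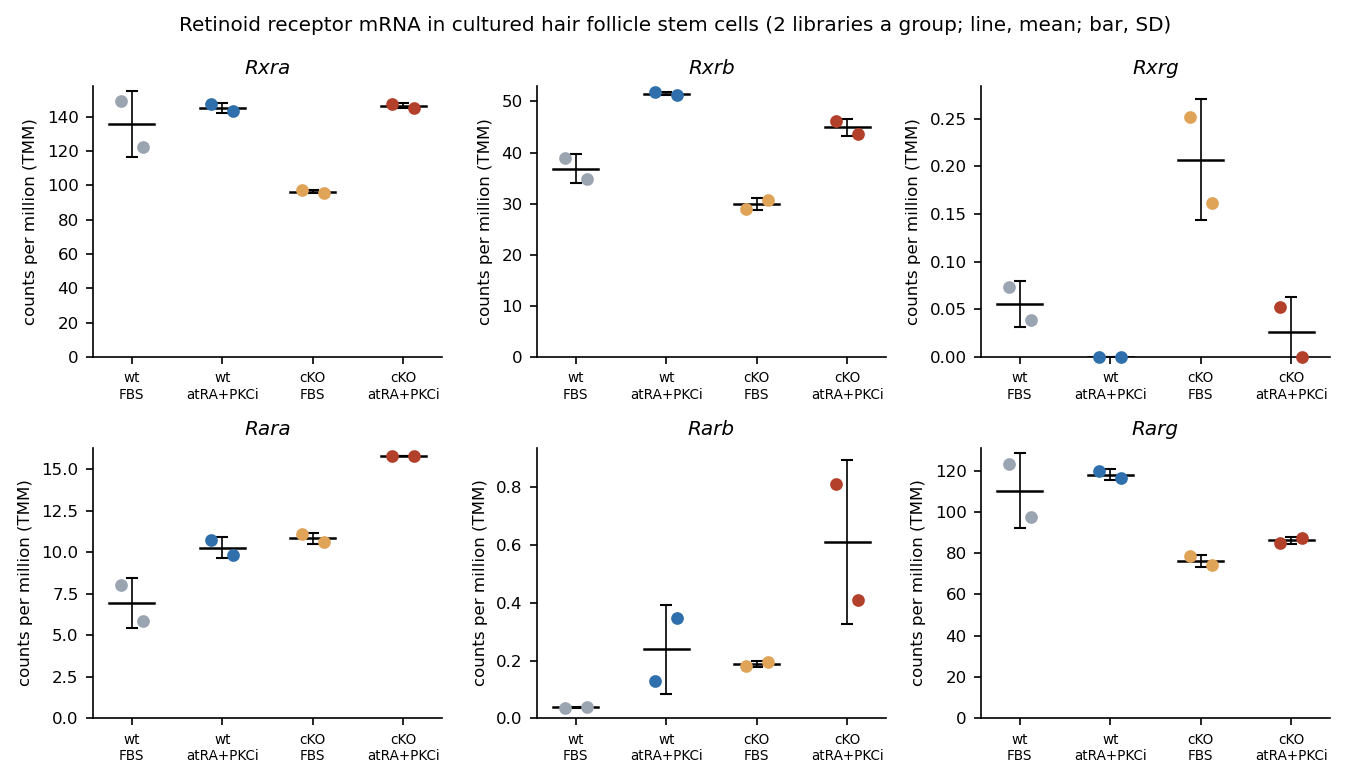
CPM (y axis, each panel with its own linear scale from 0) of the 6 receptor genes in the 4 bulk groups, with a point per library, a line at the mean and a bar for the SD (n = 2). The 2 cKO FBS points of Rxra are below all others, at 97.2 and 95.7 CPM, and Rara in cKO atRA+PKCi is above every other library.

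Rxrb, the RXR expressed at similar levels in most tissues, had 38.9 and 34.8 CPM in FBS and 51.8 and 51.3 in atRA+PKCi in wild-type lines, against 29.0 and 30.7 in FBS and 46.2 and 43.7 in atRA+PKCi in cKO lines. Every atRA+PKCi library lies above every FBS library. Rxrb rose with the medium by 0.48 ± 0.0772 (log2) in wild-type cells (adjusted p = 0.000772) and by 0.59 ± 0.0778 in cKO cells (adjusted p = 0.000402), and these differed by 0.11 with an adjusted p of 0.535. In FBS it fell by 0.30 ± 0.0786 in cKO cells (adjusted p = 0.0137), a call lost in 6 of 16 alternatives, among them the fit without cKO FBS replicate 1 and the one without wild-type FBS replicate 1. In atRA+PKCi its genotype difference was -0.20 ± 0.0762 (adjusted p = 0.0654).

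Rxrg, the RXR of muscle and nerve tissue, had 2 and 1 counts in FBS and 0 and 0 in atRA+PKCi in wild-type lines, against 7 and 5 in FBS and 2 and 0 in atRA+PKCi in cKO lines. Its counts were highest in cKO FBS, and it did not pass the filter on low counts. With no such filter, its adjusted p ranged from 0.212 to 0.907 over the 5 comparisons among 29714 genes. The 12 counts in cKO FBS against 2 in cKO atRA+PKCi give a ratio of 0.15 with an exact interval of 0.0163 to 0.676, which covers counting error only. The 0 counts in wild-type atRA+PKCi allow a level of up to 0.0478 CPM.

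Rara, the RAR found most broadly across tissues, had 8.03 and 5.87 CPM in FBS and 10.7 and 9.82 in atRA+PKCi in wild-type lines, against 11.1 and 10.6 in FBS and 15.8 and 15.8 in atRA+PKCi in cKO lines. The 2 cKO atRA+PKCi libraries are above all others and the 2 wild-type FBS libraries below all others. Rara rose with the medium in wild-type (0.56 ± 0.146, log2, adjusted p = 0.0108) and in cKO cells (0.54 ± 0.14, adjusted p = 0.0131), and it was higher in cKO than in wild-type cells in FBS (0.64 ± 0.147, adjusted p = 0.00766) and in atRA+PKCi (0.62 ± 0.14, adjusted p = 0.00672). The medium effect in cKO cells lost its call in 5 of 16 alternatives, 3 of which left out cKO FBS replicate 2 or one of the cKO atRA+PKCi libraries. The one in wild-type cells lost it without wild-type atRA+PKCi replicate 1.

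Rarb, an RAR that is itself a target gene of atRA, had 1 and 1 counts in FBS and 4 and 11 in atRA+PKCi in wild-type lines, against 5 and 6 in FBS and 31 and 11 in atRA+PKCi in cKO lines. Each atRA+PKCi library exceeds the FBS libraries of its genotype, and the libraries within the atRA+PKCi groups differ widely. The fit gave 2.54 ± 0.921 (log2) for the medium in wild-type cells (adjusted p = 0.0439) and 1.71 ± 0.613 in cKO cells (adjusted p = 0.0509). With the mouse as a replicate block the wild-type value was 2.49 (adjusted p = 0.0593). The wild-type call was lost in 10 of 15 alternatives with a p, among them each fit without a library other than wild-type atRA+PKCi replicate 1, with adjusted p from 0.0291 to 0.276. By summed counts, atRA+PKCi over FBS was 6.37-fold in wild-type cells (exact interval 1.48 to 57.4) and 3.45-fold in cKO cells (1.74 to 7.42), counting error only. Melanocyte markers, named here since Rarb is highest in melanocyte-like cells of skin, summed to 0.348 to 0.77 CPM in the bulk libraries, with Kit and Tyr at 0 in all of them.

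Rarg, the main RAR of epidermis and follicle, had 123.1 and 97.3 CPM in FBS and 119.9 and 116.2 in atRA+PKCi in wild-type lines, against 78.4 and 74.4 in FBS and 84.9 and 87.5 in atRA+PKCi in cKO lines. All 4 cKO libraries lie below all 4 wild-type libraries. The genotype effect was -0.53 ± 0.103 (log2) in FBS (adjusted p = 0.00337) and -0.45 ± 0.102 in atRA+PKCi (adjusted p = 0.0068), while the medium effect did not pass in wild-type (0.10 ± 0.102, adjusted p = 0.445) or cKO cells (0.17 ± 0.103, adjusted p = 0.208). The wild-type medium effect was -0.0660 without wild-type FBS replicate 2 and 0.276 without its replicate 1 (adjusted p = 0.0113). In atRA+PKCi the genotype call was lost in all 3 fits on the normalized values and without cKO atRA+PKCi replicate 1.

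**Figure D3:**
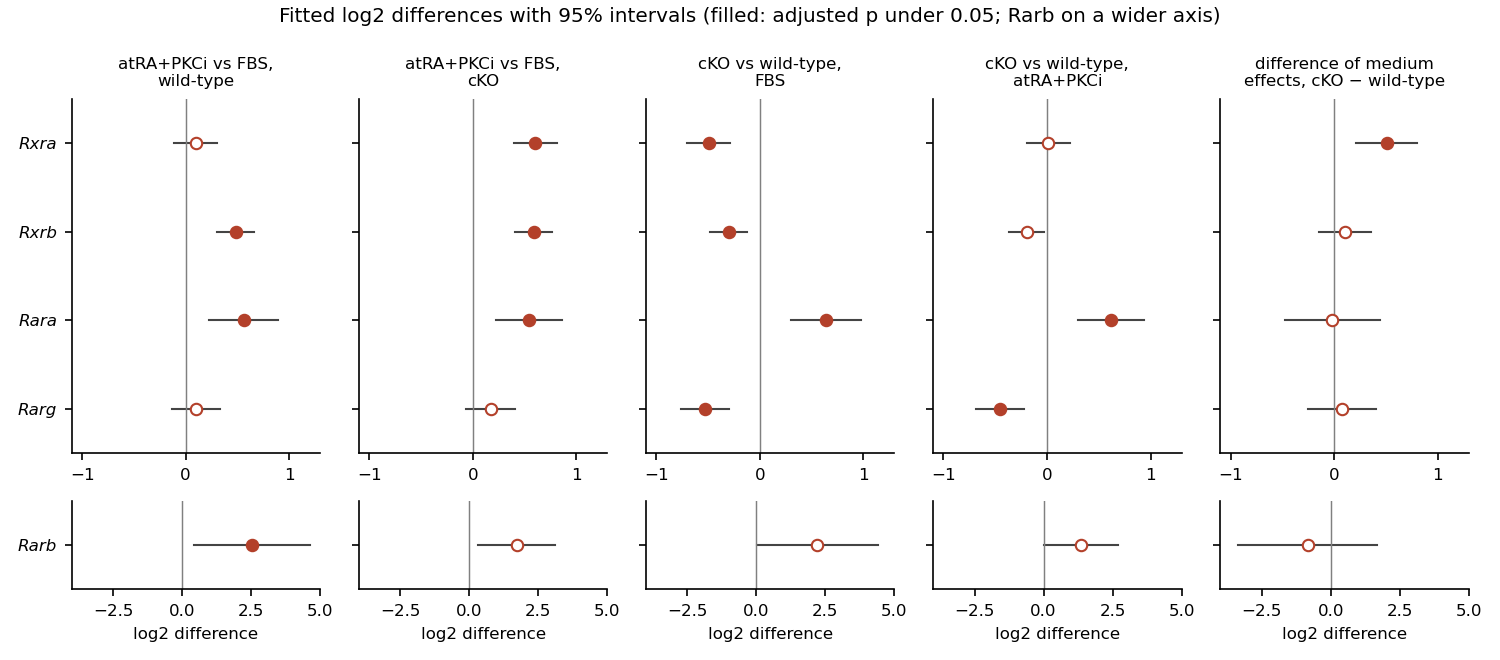
Log2 differences (x axis) with 95% intervals for the 5 receptor genes tested, in the 5 comparisons, filled where the adjusted p was under 0.05, with Rarb on a wider axis. Rara is to the right of 0 in the first 4 panels, and Rarg to the left of 0 in both genotype panels, at -0.53 and -0.45.

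The genes around the receptors were counted from 5 lists of 65 genes in all, of which 54 were tested. Their counts stand beside shares of all genes that were 27.2% higher and 26.6% lower for medium in wild-type cells, 20.8% and 22.2% for medium in cKO cells, 22.3% and 20.5% for genotype in FBS, 23.0% and 20.2% for genotype in atRA+PKCi and 13.3% and 11.3% for the difference, and nothing particular to a list is read from them. In wild-type cells, 6 of 8 tested known direct atRA targets rose with atRA+PKCi and 1 fell, with a median log2 fold change of 2.04 against 0.0343 over all genes. In cKO cells 4 rose and 1 fell (median 0.893 against 0.0163). Dhrs3, which turns retinaldehyde back to retinol, went from 7.88 and 6.53 CPM to 191 and 182.6 in wild-type cells, and from 11.9 and 13.3 to 83.8 and 84.9 in cKO cells. Its medium effect was smaller in cKO cells (log2 difference -1.95 ± 0.134, adjusted p = 2.66e-05). The media do not overlap in either genotype, and both cKO atRA+PKCi libraries lie below both wild-type ones.

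Cyp26b1, which encodes an atRA-degrading enzyme, went from 27.9 and 21.0 to 72.6 and 69.5 CPM in wild-type cells, while in cKO cells it was 14.8 and 16.0 in FBS and 14.7 and 13.0 in atRA+PKCi (difference of the medium effects -1.69 ± 0.184, adjusted p = 0.000325). The media do not overlap in either genotype, but in cKO cells the difference was -0.15 ± 0.134 and did not pass (adjusted p = 0.394). Lrat, which makes retinyl esters, had 0.110 and 0.464 CPM in FBS and 1.796 and 3.802 in atRA+PKCi in wild-type lines, against 1.98 and 2.30 in FBS and 3.51 and 3.46 in atRA+PKCi in cKO lines. It rose by 3.29 ± 0.548 in wild-type cells (adjusted p = 0.000991), and its change in cKO cells was 0.70 ± 0.428 (adjusted p = 0.221). The difference between them was -2.58 ± 0.703 (adjusted p = 0.0285), and the lowest wild-type FBS library had 3 counts. Of the 8 tested targets, the medium effect of 6 was lower in cKO cells and that of 1 higher. For Stra6, which takes up retinol, the difference was -0.28 ± 0.126 (adjusted p = 0.146). Between genotypes, 4 of the 8 were higher and 1 lower in cKO cells in FBS, while in atRA+PKCi none was higher and 5 were lower.

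Among 23 tested genes of retinoid uptake, binding and metabolism, 7 rose and 9 fell with atRA+PKCi in wild-type cells, and 7 rose and 7 fell in cKO cells. The largest falls were those of Dhrs9, which makes retinaldehyde from retinol, with log2 changes of -8.00 in wild-type and -5.62 in cKO cells, and of Aldh1a3, which makes atRA, with -6.93 and -3.04. Both are higher in cKO than in wild-type cells in atRA+PKCi, by 4.14 (Dhrs9) and 6.28 (Aldh1a3). In that medium Dhrs9 had only 5 summed counts in wild-type lines (0.0796 CPM) and 96 in cKO lines (1.473 CPM). Its wild-type fall of -8.00 rests on the same 5 counts. Of 10 tested partners of RXR, 8 fell and 1 rose with the medium in wild-type cells, the rise being that of Pparg (1.43), and 3 fell and 2 rose in cKO cells. In FBS none of the 10 was higher in cKO cells and 7 were lower. For medium, 53.9% of all genes were called in wild-type and 43.0% in cKO cells. Of the 9 corepressors 5 rose and none fell with the medium in each genotype, led in wild-type cells by Nrip1 at 1.37. Of the 10 coactivators 4 rose in wild-type and 3 in cKO cells, and Ncoa3 was lower in cKO cells in both media (-1.13 in FBS and -1.20 in atRA+PKCi). Of markers of other cells, those of fibroblasts summed to 7.65 to 11.6 CPM in wild-type FBS and 1.32 to 8.32 CPM in the other groups, with Lum at 0 in all libraries, and those of Schwann cells to 29.7 to 37.8 CPM, with Sox10 at 0 in both libraries of 3 groups. Endothelial markers summed to 1.73 to 5.18 CPM and immune markers to 0.146 to 1.86 CPM. Markers listed for adipocytes summed to 325 to 416 CPM in wild-type FBS, 159 to 192 in cKO FBS and 14.4 to 24.7 in atRA+PKCi, over 5 markers, with Cidec at 0 in both libraries of 3 groups, Adipoq in cKO FBS and Plin1 in cKO atRA+PKCi, and the part of this in the results above was not tested.

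In skin, the receptor genes differed in which cells had them. After filtering, 27233 single cells of 2 mice formed 42 clusters (receptor genes were left out of clustering), of which 24 took 1 of 14 class names from fixed markers and 17 of the 18 unnamed were kept as clusters. Named classes held 69.6% of the cells. No cluster took the name outer root sheath, basal epidermal or upper follicle, companion layer, or hair shaft cortex or cuticle. Unnamed clusters 9, 18, 25 and 38 scored highest for basal epidermal or upper follicle markers. Unnamed cluster 19 did so for the companion layer and 14 for the cortex or cuticle. Cluster 38 scored nearly as high for outer root sheath (1.94 against 1.99). Rankings among named classes leave these cells out. Although the sort was to deplete them, fibroblast-like, immune-like, endothelial-like and melanocyte-like classes are present, and fibroblast-like cells made up 37.6% and 34.6% of the cells of the 2 mice. Levels are UMIs summed per mouse and class and scaled to CPM. Because classes came from the same cells, no test was made, and classes are called different only where the values of the 2 mice do not overlap. The 2 skin matrices share 62 cell barcodes, of 16521 and 16068.

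Rarb was highest in melanocyte-like cells, at 1387 CPM in mouse 1 (1241 UMIs in 99 cells, exact Poisson interval 1311 to 1466) and 1385 CPM in mouse 2 (1527 UMIs in 90 cells, 1316 to 1456). Next came dermal papilla-like cells, the mesenchymal signalling centre of the follicle, with 99.8 and 115 CPM. Unnamed clusters 25 (Kcnb2, Chn2 and Galnt14; 37.8 and 46.3), 31 (Myog, Pax7 and Fgfr4; 41.8 and 28.6) and 19 (Pthlh, Krt6a and Krt14; 22.8 and 29.2) followed. Melanocyte-like cells, 0.727% and 0.661% of the cells, held 47.1% and 39.5% of all Rarb UMIs. Of the other named classes, skeletal muscle-like cells had 16.7 and 32 CPM, fibroblast-like cells 14.8 and 15.9, and sebaceous-like cells 1.04 and 3.06. Melanocyte-like cells exceeded the next named class by 12.9-fold on average.

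A Rarb UMI was found in 79.8% of the melanocyte-like cells of mouse 1 and 76.7% of those of mouse 2, against 27.6% and 31.1% of dermal papilla-like cells and 3.75% and 4.21% of erythroid-like cells, which should lack it. Median depth was 9693 and 11066.5 UMIs in melanocyte-like, 4219 and 6415 in dermal papilla-like and 5985 and 4960 in erythroid-like cells. With each cell thinned to 3000 UMIs, 82.4% (of 85 cells, 14 left out) and 77.0% (of 74 cells, 16 left out) of melanocyte-like cells still had a Rarb UMI, and 23.7% and 20.3% of dermal papilla-like cells. At least 5 Rarb UMIs were found in 65 of 99 and 56 of 90 melanocyte-like cells, and in 22 of 13526 and 52 of 13518 other cells. Within fibroblast-like cells, Rarb was highest in cluster 21 (led by Cdh4, Ndufa4l2 and Grem1), at 45.5 and 58.9 CPM, while the other fibroblast-like clusters had 4.06 to 21.3. The make-up of this class differs between mice, cluster 0 being mostly of mouse 2 and cluster 1 mostly of mouse 1.

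**Figure D4:**
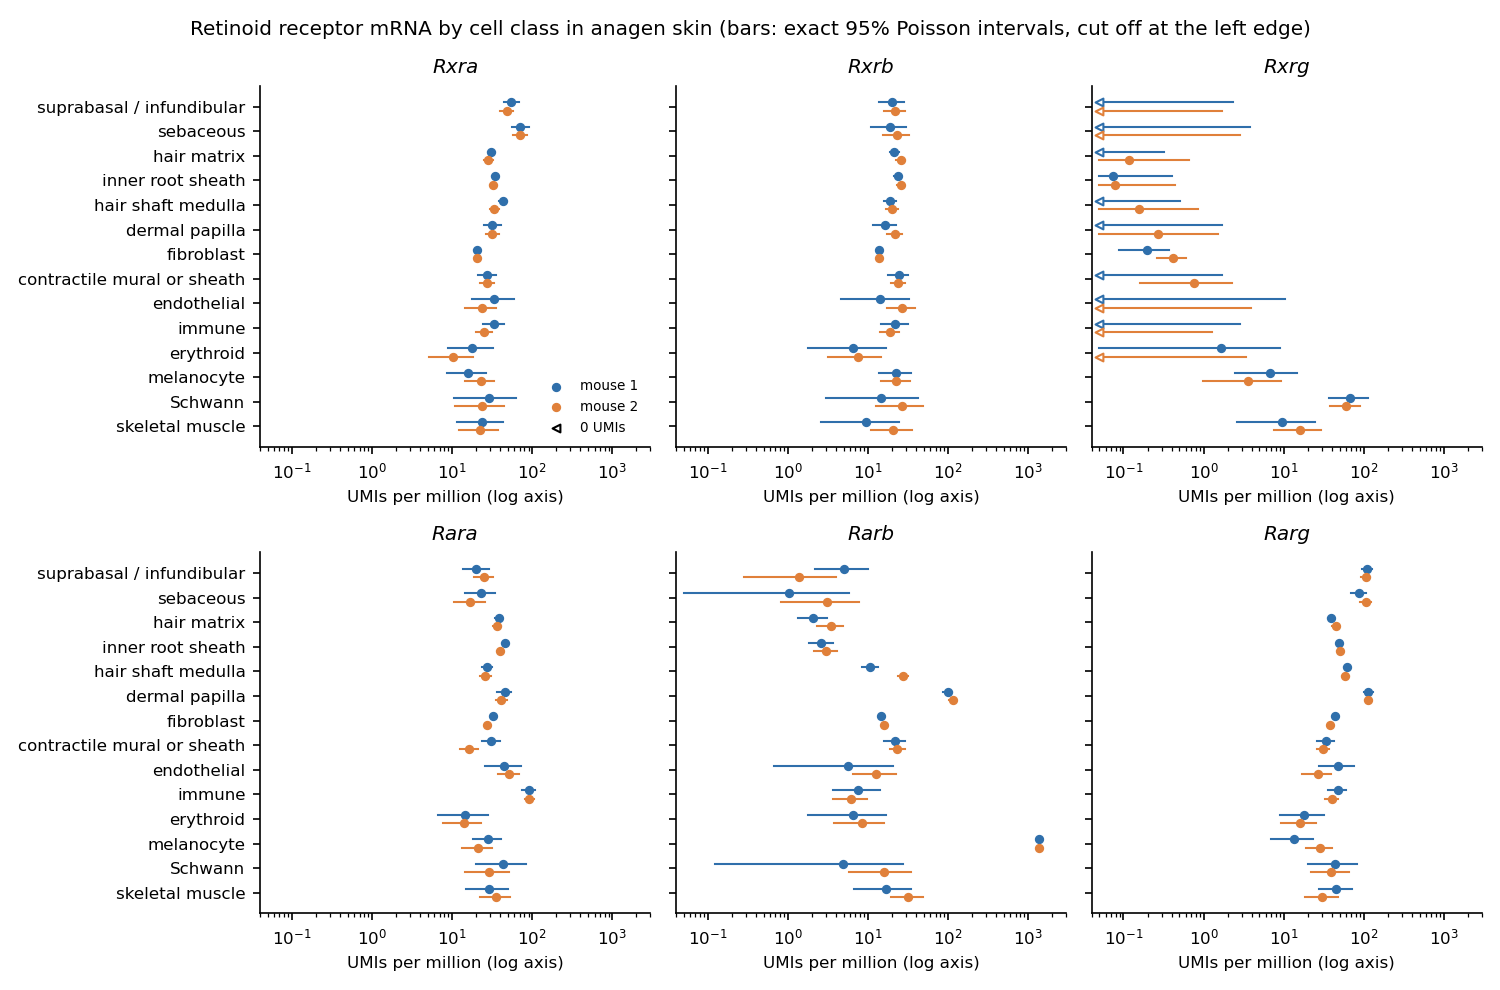
CPM from UMIs (x axis, log) of each receptor gene in the 14 named classes, with a point per mouse and exact 95% Poisson intervals, cut off at the left edge, and an open triangle for 0 UMIs. Rarb in melanocyte-like cells (1387 and 1385) lies to the right of every other point in its panel, and Rxrg in Schwann-like cells (68.2 and 60.7) does so in its panel.

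Rxrg was highest in Schwann-like cells, at 68.2 and 60.7 CPM (14 and 23 UMIs), followed by skeletal muscle-like cells, at 9.53 and 16.0 CPM (4 and 10 UMIs). Melanocyte-like cells had 6.70 and 3.63 CPM (6 and 4 UMIs). A Rxrg UMI was found in 35.7% and 26.2% of Schwann-like cells and in 0 of 249 and 0 of 447 immune-like cells, of similar median depth (4634 and 4265 against 4619 and 5323 UMIs). Schwann-like cells, 0.206% and 0.478% of the cells, held 32.6% and 23.0% of its UMIs, and the far more numerous fibroblast-like cells 20.9% and 24.0%, at 0.194 and 0.411 CPM. Of the 14 classes, 4 had no Rxrg UMI in either mouse and 5 had none in 1 mouse. The first 3 classes in the order do not overlap with their neighbours, but rest on few UMIs.

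Among named classes, Rara was highest in immune-like cells, at 90.9 and 92.5 CPM, and about as high in unnamed cluster 23 (Adamts18, Col11a1 and Clic5), at 87.4 and 98.8. Unnamed clusters 14 (Krt35, Dapl1; 50.4 and 51.4), 36 (Areg, Wfdc2 and Krt18; 58.7 and 42.2) and 17 (Car3, Fgf10 and Far2; 48.3 and 48.3) overlapped with endothelial-like cells, which came next among named classes with 45.1 and 51.2 CPM. Dermal papilla-like cells had 45.1 and 41.3 and inner root sheath-like cells 45.8 and 39.8, and these 3 classes overlap. The lowest named class was erythroid-like, at 14.7 and 14 CPM.

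Rxra was highest among named classes in sebaceous-like cells, at 71.1 and 71.0 CPM. Suprabasal epidermal or infundibular-like cells came next at 54.8 and 48.1, and fibroblast-like cells were lower at 20.2 and 20.7. The sebaceous-like class is cluster 30, led by Acsbg1, Clca3a2 and Skint3. It scored 2.66 for sebaceous and 1.68 for suprabasal epidermal or infundibular markers, so mature sebaceous cells are not shown by its name. Unnamed clusters 38 (Aqp3, Pdzrn4 and Adarb2; 56.4 and 89.2) and 18 (Ddit4l, Fgf5 and Slc39a10; 66.4 and 65.3) were near the sebaceous-like level. Rarg was highest among named classes in dermal papilla-like cells (114 and 114 CPM), then in suprabasal epidermal or infundibular-like (110 and 107) and sebaceous-like cells (86.7 and 106), with cluster 38 at 123 and 110, and lowest in erythroid-like cells (18 and 15.8). With TMM scaling the suprabasal class led Rarg at 111 CPM. Sebaceous-like and suprabasal cells are thus among the first 3 named classes for both Rxra and Rarg.

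Rxrb was the flattest, from 23.6 and 25.7 CPM in inner root sheath-like cells to 13.9 in fibroblast-like cells of both mice and 6.53 and 7.45 in erythroid-like cells. In 12 of the 13 pairs of neighbours in its order the values of the mice overlapped, and its highest class changed when 1 mouse was taken alone. Its counts do not order most classes. Of the other genes, 8 of 13 pairs overlapped for Rxra, 10 for Rxrg, 10 for Rara, 10 for Rarb and 7 for Rarg.

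The genes most alike in pattern were sought by Pearson correlation of log2(CPM + 5) over the 14 classes, averaged over mice, among 11400 genes, and are given as a description, since classes share libraries and depth. They were Slc6a17 (0.922), Unc5d and Tmem108 for Rarb, all highest in melanocyte-like cells, and Sec14l5 (0.939), Fam184b and Mlip for Rxrg, all highest in Schwann-like cells. For Rara they were Capza1 (0.849), Ccdc12 and Mapk14, highest in immune-like cells. For Rxra they were Mark4 (0.913), Bcl2l13 and Map2k4, highest in sebaceous-like cells, for Rarg Traf3ip2 (0.903), Map2k4 and Ssbp2, and for Rxrb Gpr89 (0.878), Srsf5 and Ddx5.

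In single-cell HFSC cultures, Rarb and Rxrg were again hardly detected. Over 300 cells and 9031788 UMIs of all cultures, Rarg had 412 UMIs, Rxra 284, Rxrb 137, Rara 98, Rarb 3 and Rxrg 0. Rarb and Rxrg are thus at or under the limit of 3 counts used for a count of 0. The deposited culture matrices hold 449 and 208 barcodes, and 222 and 78 of these passed the filters with 1 hashtag. With up to 20% mitochondrial UMIs, 312 and 135 did. After filtering, FBS left no cell, atRA+PKCi 2 and 1 cells of the 2 mice, Rspo 5 and 6, B-27 5 and 10, BMP2/4 113 and 13, Rspo+BMP2/4 92 and 27, and its RARi arm 5 and 21. The cultures of mouse 1 thus rest mainly on 2 conditions.

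Rxra was measured at 37.0 and 50.1 CPM in B-27 (mouse 1 and mouse 2), 29.2 and 43.1 in BMP2/4, 29.2 and 29.5 in Rspo+BMP2/4 and 104 and 31.5 when RARi was added. Rarg was measured at 26.5 and 31.9 CPM in B-27, 45.7 and 47.0 in BMP2/4, 41.5 and 64.6 in Rspo+BMP2/4 and 41.6 and 43.1 when RARi was added. The Rarg levels of the 2 mice in BMP2/4 lie above those in B-27, and the Rxra levels with RARi lie above those in Rspo+BMP2/4 without it. In the other compared pairs the mice overlap. The value of 104 for Rxra rests on 10 UMIs in 5 cells (exact interval 49.9 to 191). In mouse 2 the intervals of Rxra with RARi (19 to 49.2) and without it (18.3 to 45.1) overlap. The B-27 values of Rarg rest on 5 UMIs in 5 cells and 7 UMIs in 10 cells. Their intervals, 8.59 to 61.8 and 12.8 to 65.7, hold both BMP2/4 levels. BMP2/4 also held atRA+PKCi, and B-27 did not.

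Counts allowed a test of Rxra and Rarg among 6265 genes, at an adjusted p under 0.01 and a log2 fold change over 1. Neither passed in any of 3 comparisons with edgeR, and none did with DESeq2 or at an unadjusted p under 0.05. Of all genes tested, 5.71% passed for BMP2/4 against B-27 (0.431% higher and 5.28% lower). In the other 2 comparisons 0 passed, and 44 and 232 genes had an unadjusted p under 0.05. The BMP2/4 culture also held atRA+PKCi and B-27 did not, so effects of these additions cannot be told apart. The log2 differences of BMP2/4 against B-27 were -0.25 ± 0.512 for Rxra (95% interval -1.32 to 0.824, adjusted p = 0.778) and 0.78 ± 0.51 for Rarg (-0.291 to 1.84, adjusted p = 0.36). For RARi added to Rspo+BMP2/4 they were 0.58 ± 0.486 (-0.437 to 1.59) and -0.38 ± 0.44 (-1.3 to 0.54), both with adjusted p = 0.959. Rspo+BMP2/4 against BMP2/4 gave -0.26 ± 0.412 and 0.09 ± 0.37, both with adjusted p = 1. Apart from Rarg in the last comparison (-0.687 to 0.858), each interval reaches past 1 on the log2 scale.

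**Figure D5:**
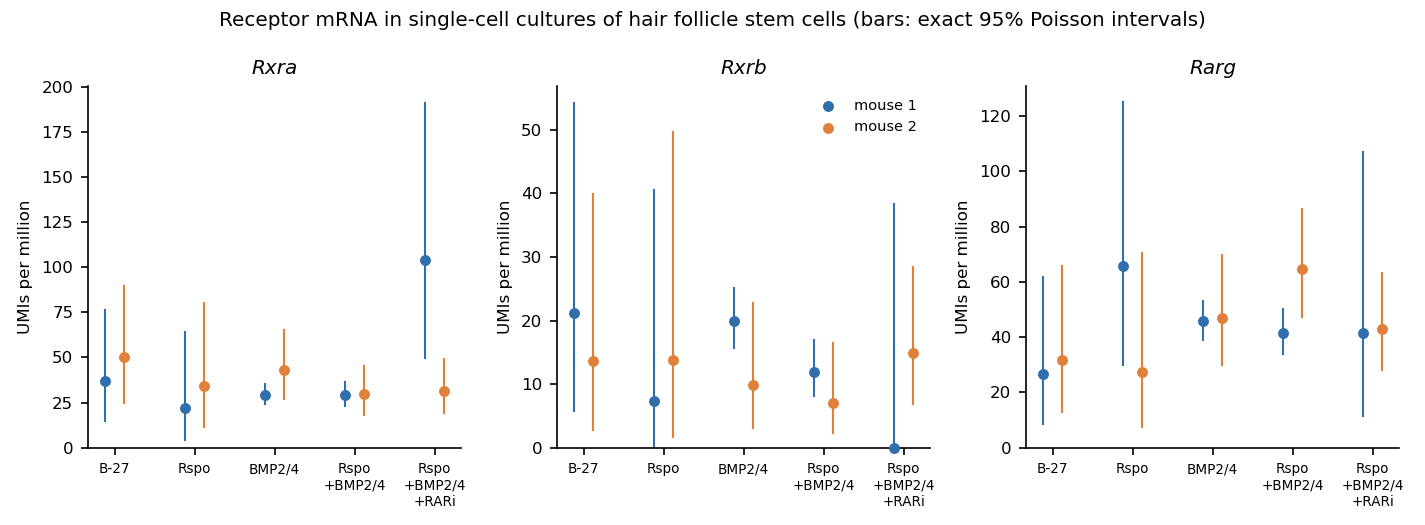
CPM from UMIs (y axis, linear from 0) of Rxra, Rxrb and Rarg in the 5 cultures with at least 5 cells in both mice, with a point per mouse and exact 95% Poisson intervals. The intervals of the 2 mice overlap in every culture for Rxrb and Rarg, and the mouse 1 RARi point of Rxra stands at 104.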

How the data were processed

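The members and the gene lists were chosen with earlier results of these data known. Bulk reads were quantified by the authors on mm10 transcripts (Salmon 1.4.0, then tximport), and the expected counts deposited are unnormalized; they were rounded to whole numbers. The authors also deposited a table of normalized counts (a signal scaled by size factors), which served the limma alternatives. The deposited single-cell matrices hold UMI counts made with Cell Ranger on mm10 (its version differs between sources); whether introns were counted is not given in the sources used here. The file of the authors that pairs hashtags with cultures holds names, and 8 samples of ATAC-seq and 5 of CUT&RUN were not used here.

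Bulk counts were fitted over all 8 libraries (edgeR 4.0.16, TMM, filterByExpr, quasi-likelihood test, Benjamini-Hochberg over 15965 genes, threshold 0.05); 12 listed genes, Rxrg among them, were filtered out. The tissue labels name mouse 1 or mouse 2 for the libraries of both media, so within a genotype the mouse pairs the libraries; the correlation of paired deviations was 0.0668 in wild-type and -0.0188 in cKO cells. The 2 libraries of a group are labelled as different mice. Skin cells with at least 500 genes, 1000 UMIs and under 10% mitochondrial UMIs were kept (8869 and 10594 median UMIs), Scrublet doublets were removed (5.76% and 2.21%), and clusters (scanpy 1.11.5, Leiden resolution 1.0) were named from fixed markers by a scoring rule set after seeing the clusters. Cultured cells were assigned with HTODemux (Seurat 5.3.0) and summed per mouse and culture; DESeq2 1.42.0 and limma 3.58.1 served as alternatives. Intervals are exact (95%) and, like the limit of 3 counts for a count of 0, cover counting error only. Named genes were the 6 receptors, at most 4 called genes per list and direction, and the 3 genes most like each receptor. The fits were checked on simulated data. Some genes of the lists entered the fits and counts but are not reported here by name.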

Additional observations from a re-analysis of the deposited data

Results flagged for a closer look

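The effect of the medium differed between wild-type and cKO cells for Rxra and for 3 direct atRA targets named here, by the interaction term of the edgeR quasi-likelihood fit. The log2 difference, cKO minus wild-type, was 0.51 for Rxra, -2.58 for Lrat, -1.95 for Dhrs3 and -1.69 for Cyp26b1. In atRA+PKCi, Dhrs3 and Cyp26b1 were lower in cKO than in wild-type cells (log2 -1.15 and -2.36). Lrat had mean levels of 3.49 CPM in cKO and 2.80 in wild-type lines there, against 2.14 and 0.287 in FBS. Its wild-type FBS level rests on 15 summed counts. The Rxra difference had an adjusted p of 0.0216 in that fit. It lost its call in several alternatives given above, among them each limma fit on the normalized values.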

How the results depend on the processing

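At 2 libraries a group, small changes in Rarb and Rxrg are limited by counts, and cultures of 5 to 10 cells limit the single-cell tests. With limma on the deposited normalized counts and no filter, 0 receptor genes were called in each bulk comparison, and also at an adjusted p under 0.01 with a log2 change over 1. The pathway counts at that stricter threshold were 20 and 10 for medium in wild-type and cKO cells, 13 and 12 for genotype in FBS and atRA+PKCi and 10 for the interaction, against 36, 28, 30, 31 and 22, while 18.5%, 11.6%, 11%, 13.0% and 7.10% of all genes passed it. With limma and no filter they were 13 (medium in cKO), 14 and 17 (genotype) and 10 (interaction), beside 11.2%, 10.8%, 12.2% and 4.07% of all genes. With limma at a pseudocount of 1 or 0.5, 17 pathway genes were called for medium in cKO cells and 14 for the interaction, 1 receptor for genotype in atRA+PKCi and 0 for the interaction; of all genes, 30.5% or 29.9% were called for medium in cKO cells, 31.5% or 31.0% for genotype in atRA+PKCi and 14.5% or 14% for the interaction. With only the 4 libraries compared, 5 receptors were called for medium in cKO cells, beside 50.8% of all genes. Leaving out 1 library, with the lone library assumed to vary like the other groups, gave 1 to 3 receptors and 19 to 36 pathway genes for genotype in atRA+PKCi, and 0 to 1 receptors and 14 to 22 pathway genes for the interaction. The lowest counts came without either cKO atRA+PKCi library or wild-type atRA+PKCi replicate 1 (genotype), and without either cKO atRA+PKCi library (interaction). In each of these fits the share of all genes called was also lower than with all libraries. Nothing particular to the receptor or pathway genes is therefore read from the lower counts. The cause was not tested.

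With the mouse as a replicate block, the receptor calls numbered 2, 3, 4, 2 and 1. These are for medium in wild-type and cKO cells, genotype in FBS and atRA+PKCi, and the interaction. Of all genes, 53.1%, 41.8%, 34.7%, 33.6% and 22.6% were called with the block, against 53.9%, 43.0%, 42.8%, 43.2% and 24.6% without it. In the block fit Rarb lost its wild-type call (2.49, adjusted p = 0.0593), Rxra for genotype in atRA+PKCi turned to -0.0596, and no other receptor call changed. That Rxra value ranged from -0.00793 (without wild-type atRA+PKCi replicate 2) to 0.065 when 1 library was left out. The medium effect in wild-type cells ranged from -0.0453 to 0.247 for Rxra and from -0.0660 to 0.276 for Rarg, below 0 without wild-type FBS replicate 2 and highest, with a call, without its replicate 1 (adjusted p = 0.0146 and 0.0113). The interaction of Rara turned to 0.0123 with DESeq2, 0.0126 with RLE scaling and 0.0014 with no filter, and with 1 library left out it ranged from -0.260 to 0.193, above 0 in 4 fits. That of Rarb turned to 0.161, 0.0522 and 0.161 with limma (pseudocount 1, 0.5 and no filter) and ranged from -1.38 to 0.0445 with 1 library left out (above 0 without wild-type atRA+PKCi replicate 2), and that of Rarg ranged from -0.103 (without wild-type FBS replicate 1) to 0.238. None of the values that changed sign passed the threshold. In cultures, Rxra for BMP2/4 against B-27 ranged from -0.502 to 0.152 with 1 culture left out (above 0 without BMP2/4 replicate 1 or B-27 replicate 2), and Rarg for Rspo+BMP2/4 against BMP2/4 was -0.021 with up to 20% mitochondrial UMIs and ranged from -0.122 to 0.305 with 1 culture left out, lowest without Rspo+BMP2/4 replicate 2.

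In skin, the level with at least 1000 genes and under 5% mitochondrial UMIs, thinned to 3000 UMIs, and TMM-scaled was 72.8, 91.8 and 51.7 CPM for Rxrg in Schwann-like cells, 116, 121 and 95.4 for Rarg in dermal papilla-like cells, 93.1, 95.7 and 85.3 for Rara in immune-like cells, 1321, 1459 and 1235 for Rarb in melanocyte-like cells and 66.4, 73.8 and 67.6 for Rxra in sebaceous-like cells. With doublets kept they were 104 (Rarg), 85.0 (Rara), 1337 (Rarb) and 68.9 (Rxra), and Rara was 89.1 at resolution 2.0.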
